A study of Mus musculus with 7 samples.

Results

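The transcriptomes of 3 mouse esophageal epithelial cell lines that carry the p53 missense allele p53R172H were compared with those of 2 wild-type (WT) lines from the same series, gene by gene over the whole table, and the changes are described here for surface receptors, secreted factors, transcription factors and metabolic genes. The comparison contrasted 5 of the 7 libraries in the series, and all 7 entered the fit behind its p-values. Each mutant line carried the label 4NQO, the usual abbreviation of a chemical carcinogen of the upper digestive tract. The WT lines had no such label, so the allele and the carcinogen cannot be told apart in any result below. The other 2 libraries came from lines without p53 (p53 -/-, null 1 and null 3) that shared the 4NQO label, and their values are given beside the comparison. All lines were esophageal epithelial cells of mixed strain background grown on plastic in keratinocyte serum-free medium. Whether the lines of a group derive from different animals is not stated, and p-values therefore measure only the spread between these lines. Genes of the usual p53 target, cell junction and keratin or cornified envelope lists were set aside. Those lists were not exhaustive, and genes such as Igfbp3 and Lsr were kept. Of the remaining genes tested, 1827 were on 37 lists in 4 classes and 11757 were on none.

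The p53 protein is a transcription factor that halts division or triggers death in damaged cells. Missense changes in its DNA-binding domain make it lose much of that activity while the protein often persists, and they are frequent in squamous cancers of the esophagus. Squamous epithelium lives on signals exchanged between neighbouring cells: ligands of the EGF receptor family drive its growth, interleukins and colony-stimulating factors call in leukocytes, and antimicrobial proteins guard its surface. Which of these signals a cell sends or reads is set by its transcription factors, and its enzymes and transporters supply the lipids, sugars and nucleotides that growth consumes.

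Total counts ranged from 12751118 (WT 2) to 47000225 (mutant 1), and levels are in CPM, each library's counts scaled to a common total with TMM factors. In every sentence the order is WT 1 and WT 2, then mutant 1, 2 and 3, then null 1 and null 3. Trp53 itself was transcribed in both groups, at 212 and 193 CPM in the WT lines and 171.6, 249.6 and 254 CPM in the mutant lines, against 8.73 and 4.71 CPM in the null lines, which cannot show the missense change. Markers of squamous epithelium, led by Krt5 and Krt14 in every line, had summed levels of 37299 and 50524 CPM in WT, 16763, 16093 and 11703 CPM in mutant and 15456 and 10850 CPM in null lines. Of these 16 markers edgeR called 0 higher and 4 lower in the mutant lines (Krt5, Krt13, Epcam and Lama3), Krt13 had 1.45 CPM and Krt4 was at 0 in mutant 2, and the part of this difference in the results below was not tested. The summed level of 15 fibroblast markers was 6.74 and 11.1 CPM in the WT lines, 1120 (mutant 1), 97.3 (mutant 2) and 553 (mutant 3) CPM in the mutant lines, and 11.96 and 861 CPM in the null lines, with 0 of the 13 tested called by edgeR (3 at an unadjusted p under 0.05, 9 called by DESeq2). The 11 immune markers found summed to between 23.5 and 92.1 CPM, nearly all of it Cd68, with Cd3e and Cd52 at 0 in all 7 libraries. Xist, the RNA that coats the inactive X chromosome, was present at 675 and 1653 CPM in the WT lines. It did not exceed 0.964 CPM in any other. The Y-linked gene Ddx3y stood at 0.987 and 0.0812 CPM in WT and 77, 70.5 and 67.4 CPM in mutant lines. Between mutant and WT lines, the sex read from these genes thus went with the group and cannot be told apart from it. In the null lines Ddx3y had 0.0304 and 96.4 CPM, so null 1 showed neither signal.

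Of 13768 genes tested, 1022 differed between mutant and WT lines at an edgeR adjusted p under 0.05, which is 7.42% of the genes: 454 were higher (3.3%) and 568 lower (4.13%) in the mutant lines. At an unadjusted p under 0.05 the count was 4199 genes, or 30.5%. The libraries of the 2 groups did not overlap for 7240 genes, or 52.6%. In the 4 classes together, 87 of 1827 genes were higher and 93 lower. Transcription factors leaned upward, with 39 higher (8.57%) and 10 lower (2.2%) of 455 tested and a median log2 fold change of 0.52 against 0.08 over all genes tested. Of 300 surface receptors, 13 were called higher (4.33%) and 23 lower (7.67%), but 180 had fold changes above 0, the median log2 fold change was 0.33 and DESeq2 called 59 higher and 44 lower. Of 322 secreted factors, 9 were called higher (2.8%) and 16 lower (4.97%), while 204 had fold changes above 0, the median was 0.82 and DESeq2 called 73 higher and 46 lower. For both classes the direction of the edgeR calls was therefore not that of the members as a whole. For metabolic genes the counts were 26 higher (3.47%) and 44 lower (5.87%) of 750. The set-aside lists, for scale, held 3 higher and 57 lower genes of 184. These calls needed both WT lines: without WT 1, and likewise without WT 2, 0 genes passed the threshold in edgeR (2840 and 2207 at an unadjusted p under 0.05). Without mutant 2 there were 37 calls and without mutant 3 there were 6, whereas DESeq2 on all libraries called 3187 (1710 higher) and limma-voom 743 (200 higher).

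**Figure D1:**
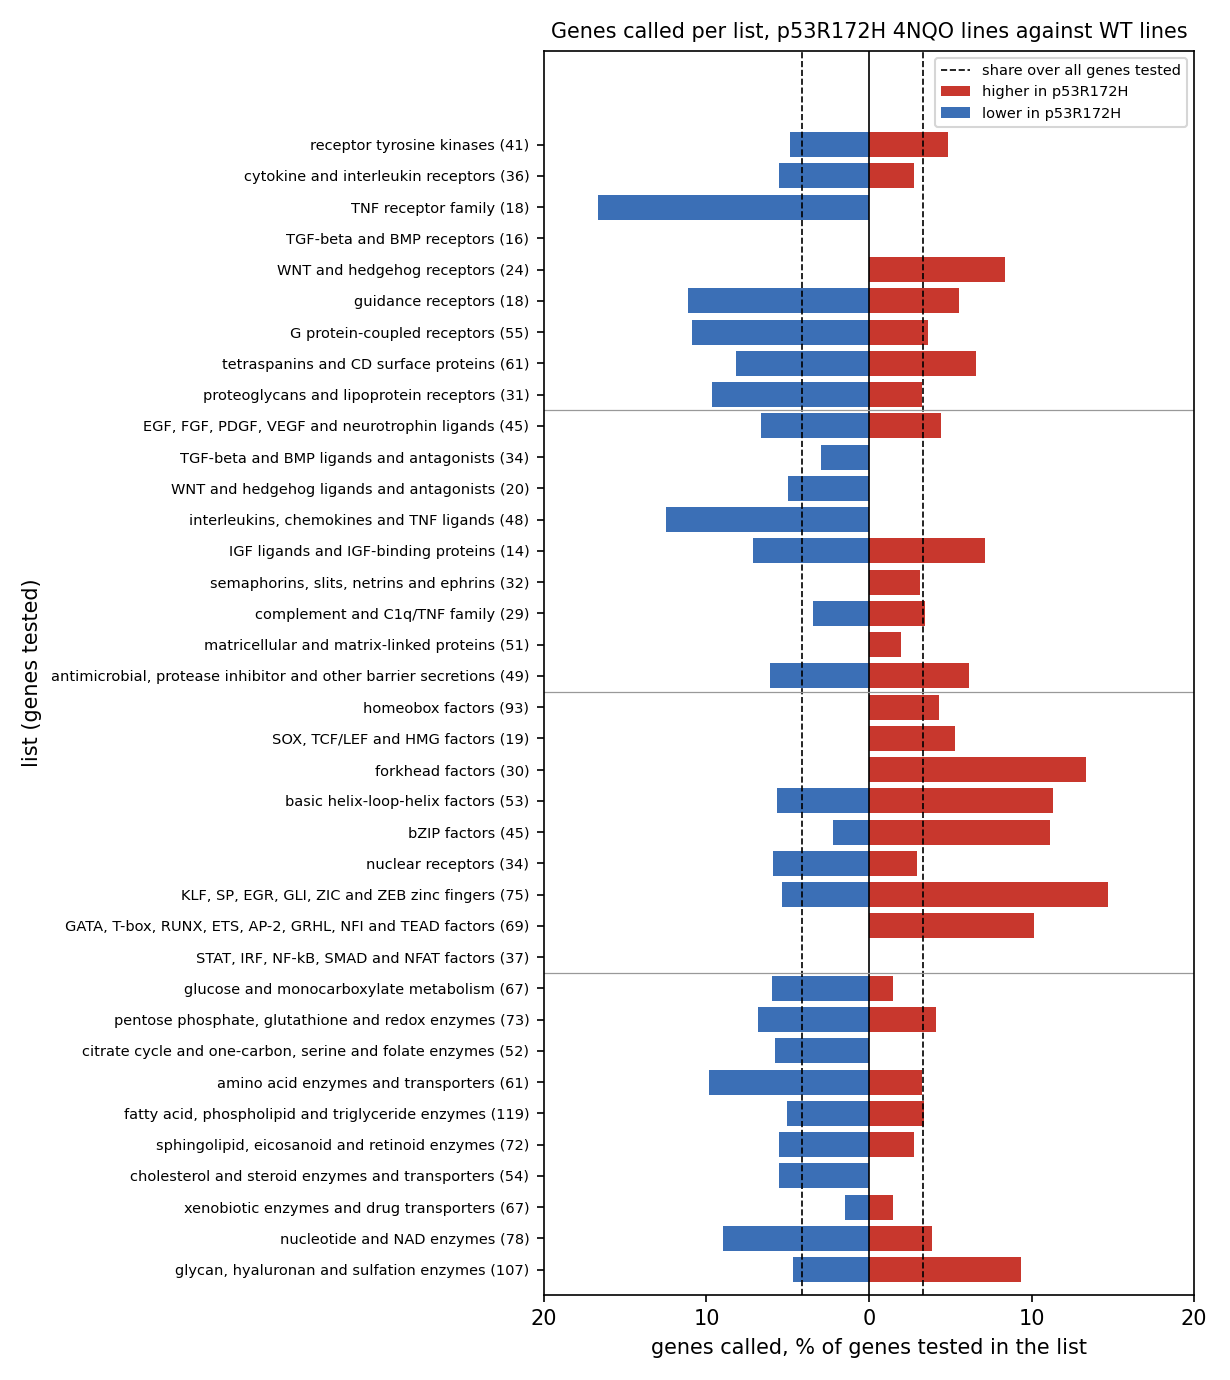
Genes called by edgeR in mutant against WT in each of the 37 lists, as a percentage of the genes tested in the list (number in brackets), with genes lower in the mutant lines to the left and genes higher to the right. Dashed lines mark the shares over all genes tested, 4.13% lower and 3.3% higher. The zinc finger list reaches furthest to the right (11 of 75 tested), and the lists of TNF receptors and of interleukins, chemokines and TNF ligands extend only to the left.

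Among surface receptors, the mutant lines carried less mRNA for several receptors that epithelial cells use to read growth, danger and nucleotide signals, and more for receptors of thrombin, natriuretic peptide and hedgehog. Leaving out Mertk and Gpc3, which had only 2 and 3 counts in the WT lines, log2 fold changes of the listed genes named by rule within this class ran from -4.88 (Gpr115) to 5.61 (F2r). The receptor genes Grpr and Prokr2, which were on none of the lists, fell further (log2 fold changes -8.29 and -7.68). The 24 receptors and surface proteins named by rule had adjusted p-values between 0.0212 and 0.0455.

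Of 41 receptor tyrosine kinases tested, 2 rose and 2 fell (9.76% called, beside 7.42% of all genes). The list's median log2 fold change was 0.57, and 9 of 14 DESeq2 calls were higher. Erbb3, the neuregulin-binding member of the EGF receptor family, fell from 53.5 and 60.2 CPM in the WT lines to 12.2, 11.2 and 3.9 CPM in the mutant lines (log2 fold change -2.64 ± 0.49 SE, edgeR adjusted p = 0.0349). Mutant 3 had the least, and the null lines, at 46.7 and 27.6 CPM, lay above all 3 mutant lines. Its partners differed less: Erbb2 had 79.9 and 121 CPM in WT and 48.4, 67.8 and 56.3 CPM in mutant lines (edgeR adjusted p = 0.0793), and Egfr had 105 and 101 CPM (WT) and 67.1, 68.6 and 82.1 CPM (mutant) (edgeR adjusted p = 0.191). Epha1, a receptor for membrane-bound ephrin-A ligands, fell from 85.8 and 103 to 30.0, 21.6 and 27.1 CPM (log2 fold change -1.84), with 114 and 55.3 CPM in the null lines. Ephb4, which binds ephrin-B2, moved the other way, from 74.3 and 89.9 to 192, 175 and 153 CPM (log2 fold change 1.08). Mertk, a receptor that recognises dying cells through Gas6 and protein S, had 2 counts in the WT lines together and 4.52, 4.51 and 8.19 CPM in the mutant lines. That is a ratio of 119 (exact 95% counting interval 32.8 to 984), and null 3 had 3.11 CPM. Its ligand genes did not pass the test: Gas6 had 127 and 152 CPM in WT and 85.4, 143 and 201 CPM in mutant lines, and Pros1 had 3.44 and 5.12 CPM (WT) and 22, 14.5 and 21.2 CPM (mutant) (edgeR adjusted p = 0.95 and 0.227). The FGF receptor gene Fgfr1 had 0.272 and 0.731 CPM in WT and 108, 40.01 and 101 CPM in mutant lines without passing (edgeR adjusted p = 0.0607), and null 1 and null 3 differed widely, at 2.34 and 126 CPM.

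Of 36 cytokine receptors edgeR called 1 higher and 2 lower (median log2 fold change 0.09), and DESeq2 called 3 higher and 3 lower. Of 18 TNF receptors edgeR called 0 higher and 3 lower (median -0.01), and DESeq2 called 1 higher and 4 lower. Il17re, the receptor chain through which epithelia sense IL-17C, fell from 82.2 and 75.2 to 22.1, 19.7 and 17 CPM (log2 fold change -2.01 ± 0.26 SE, edgeR adjusted p = 0.0212), and its partner chain Il17ra had 34.9 and 33.9 CPM in WT and 33.8, 37.8 and 51 CPM in mutant lines (edgeR adjusted p = 0.461). Il18rap, the accessory chain of the IL-18 receptor, which lies outside the naming rule and was chosen after its values were seen, fell from 1.29 and 1.38 to 0.183, 0.142 and 0.161 CPM. Il6st, the gp130 chain shared by receptors of IL-6 and LIF, was the 1 of 36 cytokine receptors that rose, from 94.2 and 118 to 283, 311 and 253 CPM (log2 fold change 1.41). Of the chains that pair with it, Lifr had 0.17 and 0.0812 CPM in WT and 8.54, 4.03 and 8.31 CPM in mutant lines (edgeR adjusted p = 0.0694) and Il6ra 10.3 and 11.7 CPM (WT) and 15.6, 34.9 and 30.4 CPM (mutant) (edgeR adjusted p = 0.108). Tnfrsf18, known as GITR on lymphocytes, went from 5.31 and 5.6 to 0.264, 0.332 and 0.275 CPM (log2 fold change -4.21). Both null lines were as low, at 0.335 and 0.152 CPM. Tnfrsf23, a mouse decoy receptor for the death ligand TRAIL, went from 206 and 116 to 43.2, 34.4 and 44 CPM. Its close paralog Tnfrsf22, outside the rule and chosen after its values were seen, had 31.8 and 32.8 CPM (WT) and 12.5, 16 and 18.4 CPM (mutant), and reads shared by this pair could have been split in counting. None of 16 TGF-beta and BMP receptors was called by edgeR (6 at an unadjusted p under 0.05), and DESeq2 called 4 and limma-voom 0. The one with the smallest p, the BMP receptor gene Acvrl1, had 8.23 and 11.8 CPM in WT and 1.2, 0.19 and 0.642 CPM in mutant lines (edgeR adjusted p = 0.0891).

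Receptors of developmental and guidance cues went in both directions. Gas1, a hedgehog co-receptor, rose from 3.13 and 7.39 to 112, 168 and 115 CPM (log2 fold change 4.67), with 4.63 and 42.1 CPM in the null lines. Fzd1, a WNT receptor, rose from 26.6 and 34 to 81.1, 76.2 and 59.9 CPM (log2 fold change 1.26). These were the 2 calls among 24 WNT and hedgehog receptors (8.33%, beside 7.42% of all genes). The hedgehog receptor Ptch1 had 17.7 and 25.2 CPM in WT and 22.2, 29 and 29.8 CPM in mutant lines (edgeR adjusted p = 0.374). Its signalling partner Smo had 115 and 125 CPM in WT and 97.9, 131 and 102 CPM in mutant lines (edgeR adjusted p = 0.662). Among guidance receptors, Nrp1, which binds class 3 semaphorins and VEGF, fell from 104 and 165 to 11.5, 33.9 and 31.6 CPM (log2 fold change -2.39). Neo1, a receptor for netrin and repulsive guidance molecules, rose from 90.4 and 80.1 to 182, 224 and 299 CPM (log2 fold change 1.46). Robo3, of the Slit receptor family, had 4.22 and 3.33 CPM in WT and 0 counts in all 3 mutant lines, at least 178-fold lower with a floor of 3 counts over the group. It lies outside the rule and was chosen after its values were seen.

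G protein-coupled receptors had 2 members higher and 6 lower of 55 tested (14.5% called, beside 7.42% of all genes). The list's median log2 fold change was 0.06, and 7 of 17 DESeq2 calls were higher. Gpr115, an adhesion receptor of squamous epithelia, fell from 18.5 and 9.09 to 0.529, 0.356 and 0.505 CPM (log2 fold change -4.88 ± 0.71 SE, edgeR adjusted p = 0.0231). P2ry2, which senses extracellular ATP and UTP, fell from 20.9 and 27.8 to 3.64, 2.23 and 3.51 CPM (log2 fold change -2.96 ± 0.35 SE, edgeR adjusted p = 0.0212). Gpr39, a zinc-sensing receptor, fell from 10.1 and 9.34 to 0.773, 1.31 and 1.22 CPM, and the null lines were also low, at 2.01 and 1.9 CPM. The groups lay far apart for these 3 receptors. F2r, the thrombin receptor PAR1, stood at 2.08 and 2.44 CPM in WT and 92.5, 110.4 and 126 CPM in mutant lines (log2 fold change 5.61 ± 0.87 SE, edgeR adjusted p = 0.0253), with 18.4 and 116 CPM in the null lines. Npr2, listed with this group although it is a guanylyl cyclase that binds C-type natriuretic peptide, rose from 0.646 and 0.568 to 23.5, 31.3 and 22.8 CPM (log2 fold change 5.39). The null lines held 6.88 and 23.6 CPM of it, so null 3 matched the mutant lines and null 1 lay between the groups.

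The other surface proteins included some of the most abundant changes. Ly6e, a lipid-anchored protein of the Ly6 family, fell from 2413 and 2558 to 669.7, 544 and 481 CPM (log2 fold change -2.14), and null 1, at 2219.6 CPM, was close to WT. Cd24a, a heavily glycosylated epithelial surface protein, fell from 398 and 373 to 194, 172.2 and 184 CPM. Sdc1, the heparan sulfate proteoglycan syndecan-1, fell from 1839 and 2009.5 to 909, 798 and 894 CPM and was chosen after its values were seen. Stab1, a scavenger receptor, fell from 27 and 32.8 to 5.67, 4.98 and 2.8 CPM (log2 fold change -2.74). Lsr, a lipoprotein receptor that also sits where 3 epithelial cells meet, fell from 169 and 148 to 65.9, 69 and 49.9 CPM (log2 fold change -1.36 ± 0.18 SE, edgeR adjusted p = 0.0212). Gpc3, a glypican that binds WNT and hedgehog ligands, had 3 counts in the WT lines together and 4.7, 35.9 and 20.1 CPM in the mutant lines, a ratio of 270.2 (exact 95% counting interval 92.3 to 1311). The null lines, at 0.0609 and 0.228 CPM, were as low as WT for this gene. Cd59a, which blocks the membrane attack complex of complement, rose from 0.51 and 0.812 to 14.3, 10.3 and 11.4 CPM, and Tspan15, a tetraspanin that guides the sheddase ADAM10, rose from 0.884 and 0.65 to 9.25, 16.4 and 8.97 CPM. Across the 300 receptors, 0 calls were left without WT 1, without WT 2 and without mutant 3, and 3 without mutant 2. Without null 3 there were 55, and DESeq2 called 103.

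**Figure D2:**
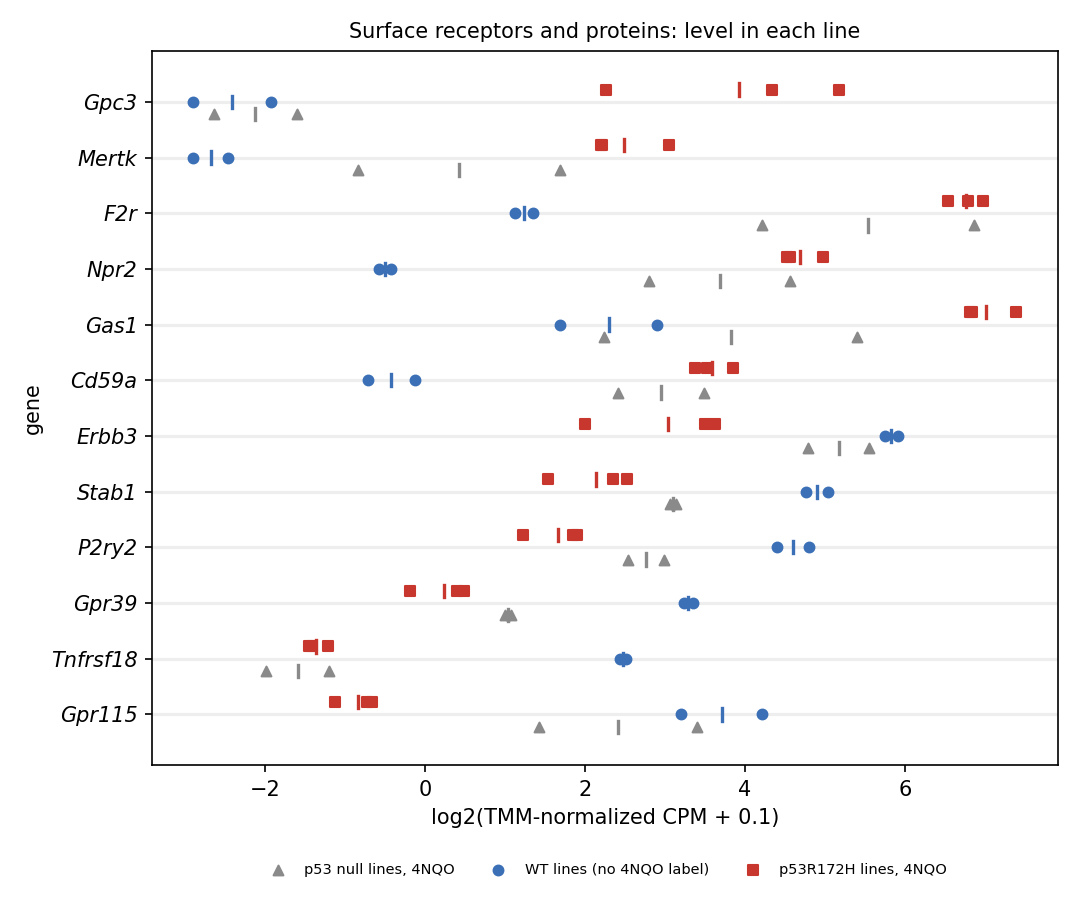
Levels of the 6 listed surface receptors or proteins with the largest and the 6 with the smallest log2 fold change under the naming rule. They are shown as log2 of TMM-normalized CPM plus 0.1. Each symbol is 1 cell line and the short bar is the group mean. The mutant lines lie apart from both WT lines for each of the 12 genes, which the naming rule required. Null lines sit near WT for Gpc3 and near the mutant lines for Tnfrsf18.

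Promoters of the receptors that fell were read for the E-box CACCTG, written CAGGTG on the other strand, which ZEB and SNAI repressors bind. Zeb1 was among the genes that rose and Snai3 among those that fell. The part of either factor in the receptor levels was not tested. The windows, from RefSeq on GRCm38.p6, hold 250 bases before and 50 after each start. They matched 10280 of the 13768 genes tested, and 18.3% of their 13148 windows held the 6 letters on either strand. The share was 28.3% (156 of 552 windows) for genes called lower and 14.6% (65 of 446) for genes called higher. Of the receptors called lower, 17 of 23 matched, and 8 of their 19 windows (42.1%) held it, against 62 of 291 (21.3%) for receptors tested and 1 of 12 (8.33%) for those called higher. These shares are a description with no test, and a match of letters is not evidence of binding. Of the 8 windows, 3 are shown without their last 50 bases, chosen as receptors named above: Lsr, with 4 copies, and Epha1 and P2ry2, with 1 each. They are written 5′ to 3′ on the gene's strand with the E-box in capitals, from chr7:30973470-30973719 (minus strand), chr6:42373269-42373518 (minus strand) and chr7:101012054-101012303 (minus strand), the last at one of the annotated starts of its gene.
Lsr: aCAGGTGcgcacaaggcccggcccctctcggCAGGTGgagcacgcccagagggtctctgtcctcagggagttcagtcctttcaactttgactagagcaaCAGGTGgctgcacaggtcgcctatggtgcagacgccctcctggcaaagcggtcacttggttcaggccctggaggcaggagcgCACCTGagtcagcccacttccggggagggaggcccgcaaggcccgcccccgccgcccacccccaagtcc
Epha1: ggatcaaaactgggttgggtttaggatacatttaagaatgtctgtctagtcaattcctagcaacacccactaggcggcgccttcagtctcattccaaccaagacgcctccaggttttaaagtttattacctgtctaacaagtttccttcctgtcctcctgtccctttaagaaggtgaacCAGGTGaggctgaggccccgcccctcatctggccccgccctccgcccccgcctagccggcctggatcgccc
P2ry2: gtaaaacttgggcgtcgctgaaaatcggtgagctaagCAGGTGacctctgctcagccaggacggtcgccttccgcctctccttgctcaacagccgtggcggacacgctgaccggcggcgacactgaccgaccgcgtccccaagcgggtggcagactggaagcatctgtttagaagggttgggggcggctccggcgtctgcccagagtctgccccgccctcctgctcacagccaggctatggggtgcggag

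Among the secreted factors that fell were signals to leukocytes, the EGF receptor ligands Areg and Tgfa, and the antimicrobial proteins Ltf and Defb14. Others that WT lines hardly transcribed were present in the mutant lines: Slit3, Igfbp4, Gdnf, Wisp1 and C1qtnf3. Named secreted factors had adjusted p-values between 0.0113 and 0.0463. The list of antimicrobial, protease inhibitor and other barrier secretions as a whole did not lean downward. Of its 49 genes edgeR called 3 higher and 3 lower, and its median log2 fold change was -0.02.

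All 6 edgeR calls among 48 interleukins, chemokines and TNF ligands were lower, while the list's median log2 fold change was -0.13 and 5 of 20 DESeq2 calls were higher. Csf3, which encodes the granulocyte colony-stimulating factor G-CSF, fell from 141 and 234 to 4.13, 5.91 and 2.11 CPM (log2 fold change -5.53 ± 0.50 SE, edgeR adjusted p = 0.0113), with 31.6 and 19.8 CPM in the null lines. Tnf, the prototype inflammatory cytokine, fell from 7.99 and 14.4 to 0.325, 0.0237 and 0.0688 CPM (log2 fold change -6.27 ± 1.0 SE, edgeR adjusted p = 0.0264). Null 1 and null 3 kept 7.39 and 5.69 CPM of Tnf, below WT and far above the mutant lines. Ppbp, the platelet-type chemokine CXCL7, fell from 28.4 and 37.3 to 1.06, 0.712 and 0.39 CPM, and null 3 matched WT at 34.3 CPM. Lif, a ligand that signals through gp130, fell from 88.2 and 111 to 27.8, 22.7 and 27.2 CPM (log2 fold change -1.94 ± 0.19 SE, edgeR adjusted p = 0.0139). The other 2 calls, outside the rule and chosen after their values were seen, were Csf2, the growth factor GM-CSF, with 3.16 and 3.41 CPM in WT and 0.122, 0.0475 and 0.0459 CPM in mutant lines, and the chemokine Cxcl16, with 363 and 301 CPM (WT) and 151, 90.7 and 57.5 CPM (mutant). In the null lines Cxcl16 was near the WT level, at 429 and 297 CPM. The receptor of Tnf, Tnfrsf1a, had 133 and 135 CPM in WT and 133, 154 and 153 CPM in mutant lines (edgeR adjusted p = 0.569).

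Among growth factors, the EGF receptor ligands Areg and Tgfa went down and 2 other ligands went up. Of the 45 genes in the list of EGF, FGF, PDGF, VEGF and neurotrophin ligands edgeR called 2 higher and 3 lower. The list's median log2 fold change was 0.49, and 7 of 12 DESeq2 calls were higher. Areg, amphiregulin, fell from 38.4 and 28.1 to 8.03, 7.38 and 10.1 CPM (log2 fold change -1.97), and null 3 lay inside the mutant range at 7.86 CPM. Tgfa, transforming growth factor alpha, fell from 114 and 103 to 36.8, 55.3 and 53.7 CPM (log2 fold change -1.16). Fgfbp3, a carrier of FGFs chosen after its values were seen, fell from 29.5 and 19.2 to 7.42, 4.86 and 3.95 CPM. Nrg2, a neuregulin that binds ERBB receptors, rose from 1.19 and 1.79 to 25.1, 12.6 and 15.3 CPM (log2 fold change 3.58 ± 0.62 SE, edgeR adjusted p = 0.0307). The null lines, at 0.426 and 1.18 CPM, were below both WT lines for Nrg2. Gdnf, a ligand of the receptor Ret, rose from 0.272 and 0.487 to 15.6, 10.7 and 16 CPM (log2 fold change 5.26 ± 0.67 SE, edgeR adjusted p = 0.0212), and the null lines had 4.99 and 13.8 CPM. Its receptor genes did not pass: Ret had 0.714 and 1.46 CPM in WT and 1.63, 0.119 and 0.436 CPM in mutant lines, and Gfra1 had 0.442 and 0.487 CPM (WT) and 3.03, 8.92 and 0.918 CPM (mutant) (edgeR adjusted p = 0.794 and 0.104). In the TGF-beta and BMP ligand list edgeR called 1 of 34 genes, Inhbb, although 25 had fold changes above 0, the median log2 fold change was 1.44 and 11 of the 14 genes called by DESeq2 were higher. In the WNT and hedgehog ligand list it called 1 of 20, Wnt7b, with a median of 1.47 and 3 of 6 DESeq2 calls higher. Inhbb, a subunit of activin B, fell from 134 and 145 to 70.1, 74.3 and 61.5 CPM. Wnt7b fell from 180.2 and 88.2 to 52.6, 44.3 and 35.4 CPM.

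Of 14 IGF ligands and IGF-binding proteins edgeR called 1 higher and 1 lower, and DESeq2 called 4 higher and 1 lower. Igfbp3 fell from 321 and 255 to 45.2, 97.3 and 90.4 CPM (log2 fold change -1.89). Igfbp4 rose from 0.85 and 1.62 to 129, 69.6 and 492 CPM (log2 fold change 7.62 ± 1.38 SE, edgeR adjusted p = 0.0329), highest in mutant 3. Both carry insulin-like growth factors, whose receptor gene Igf1r had 144 and 116 CPM in WT and 171, 173 and 165 CPM in mutant lines (edgeR adjusted p = 0.147). Slit3, a secreted guidance cue for Robo receptors, had 2 counts in the WT lines together and 34, 88.6 and 45.6 CPM in the mutant lines. The ratio was 1143 (exact 95% counting interval 316 to 9438), and the null lines, at 0.974 and 5.66 CPM, lay between. Its receptor genes did not pass the test. Robo1 had 15.5 and 29 CPM in WT and 22.5, 38.1 and 41 CPM in mutant lines (edgeR adjusted p = 0.568), and Robo2 had 0.238 and 0.893 CPM (WT) and 15.3, 7.59 and 17.9 CPM (mutant) with an edgeR adjusted p of 0.0653. C1qtnf3, a relative of adiponectin, had 0 counts in both WT lines and 12.3, 29.2 and 3.81 CPM in the mutant lines, at least 206-fold higher with a floor of 3 counts over the group. The null lines were also at or near 0 for it, at 0 and 0.0380 CPM.

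The matrix list moved unevenly. Wisp1, a matricellular protein of the CCN family, was its 1 call among 51 genes (1.96%), rising from 2.72 and 2.76 to 84.9, 169 and 28.4 CPM (log2 fold change 5.10), with 56.4 and 55.9 CPM in the null lines. Yet 45 of the 51 had fold changes above 0, and the list's median log2 fold change was 4.18, the highest of the 37 lists, while DESeq2 called 24 and limma-voom 0 of them. The lines did not share this level: relative to the WT mean, the median log2 ratio of its genes reached 4.29 for mutant 1, 0.76 for mutant 2 and 2.38 for mutant 3. The fibroblast marker sum followed the same order, 1120, 97.3 and 553 CPM in mutant 1, 2 and 3, and its part in the result was not tested.

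Barrier proteins and enzymes made up the rest. Ltf, the iron-binding antimicrobial lactoferrin, fell from 12.4 and 19.97 to 0.0203, 0 and 0.0688 CPM (log2 fold change -8.92 ± 1.59 SE, edgeR adjusted p = 0.0321). The null lines disagreed with each other on Ltf, at 15.7 and 0.645 CPM. Defb14, a beta-defensin, fell from 9.87 and 10.1 to 0.366, 0.0237 and 0.184 CPM (log2 fold change -5.67). Plau, the protease urokinase, fell from 433 and 332 to 72, 33.3 and 39.6 CPM (log2 fold change -2.98 ± 0.40 SE, edgeR adjusted p = 0.0212). Pltp, which moves phospholipids between lipoproteins, rose from 3.91 and 4.71 to 53.6, 100.2 and 59.97 CPM. Cst3, the protease inhibitor cystatin C, rose from 94.3 and 91.9 to 175, 209 and 158 CPM, a small change at a high level, and the null lines had 197 and 208 CPM. Without WT 1, and without WT 2, 0 of these calls were left, and 1 was left without mutant 2 and 1 without mutant 3. The count was 40 without mutant 1, 52 without null 1, 55 without null 3 and 119 with DESeq2.

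**Figure D3:**
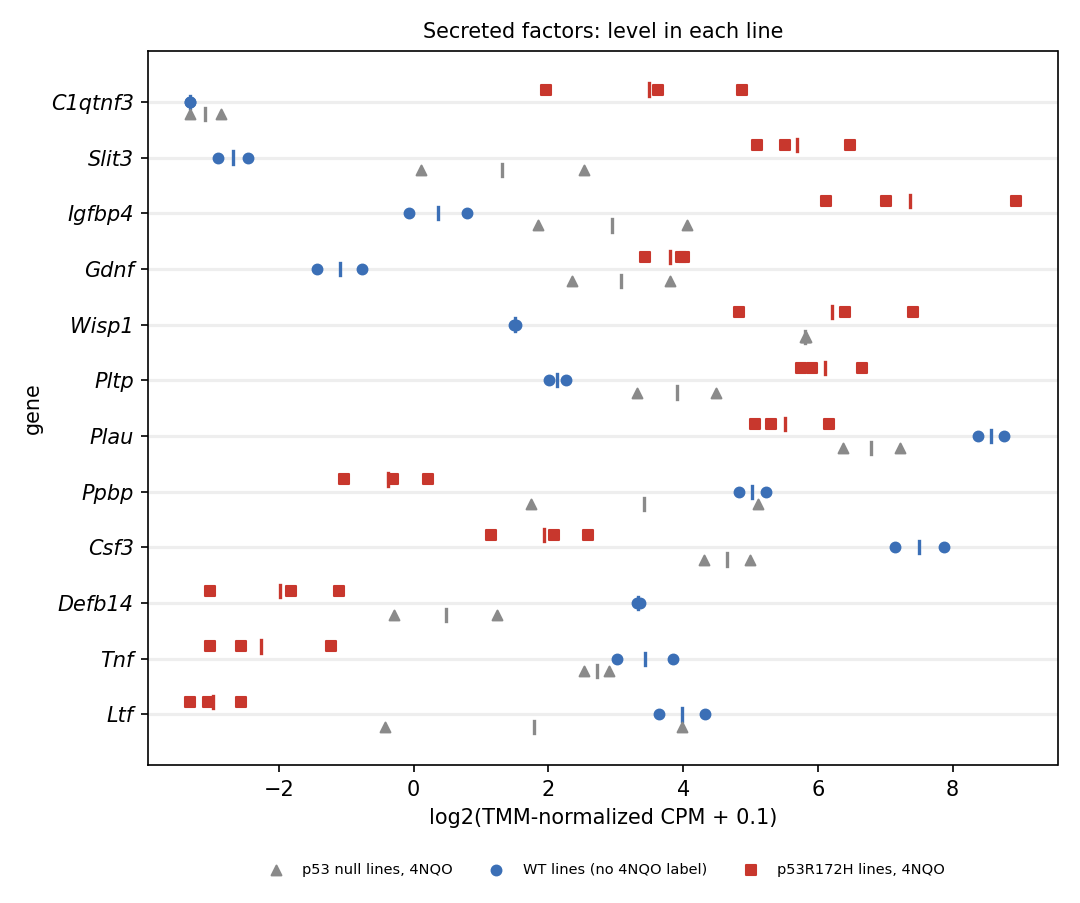
Levels of the 6 listed secreted factors with the largest and the 6 with the smallest log2 fold change under the naming rule. They are shown as log2 of TMM-normalized CPM plus 0.1, with 1 symbol per cell line and short bars at the group means. The mutant and WT lines do not overlap for any of the 12 genes, which the naming rule required. The null lines are spread between them, with C1qtnf3 at the WT level and Ppbp reaching it in null 3.

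Transcription factors rose far more often than they fell. The risers included repressors and activators known from mesenchymal and embryonic tissue, such as Zeb1, Foxf2, Foxd1, Tbx15 and Scx. Of factors tied to the daily clock, Nfil3, Tef and Nr1d1 rose and Arntl2 fell. The 10 that fell included Prdm1, Sp6, Hes1 and Ppard, known from differentiating epithelium. Named transcription factors had adjusted p-values between 0.0212 and 0.0455. The lean upward depended on the method: limma-voom called 12 higher and 12 lower.

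The zinc finger list had the largest share called of the 37, 11 higher and 4 lower of 75 (20%). Zeb1, a repressor of epithelial genes, had 3 counts in the WT lines together and 28.9, 53.6 and 53.7 CPM in the mutant lines, a ratio of 620.2 (exact 95% counting interval 212 to 3008). Null 1 was near WT and null 3 between the groups, at 0.274 and 6.23 CPM. Its paralog Zeb2, outside the rule and chosen after its values were seen, rose from 3.61 and 4.38 to 66.1, 67 and 83.4 CPM. Zbtb16, the repressor PLZF, rose from 0.102 and 0.0812 to 5.57, 3.87 and 9.59 CPM (log2 fold change 6.02 ± 0.91 SE, edgeR adjusted p = 0.0246). Klf15, a glucocorticoid-responsive factor, rose from 0.204 and 0.162 to 11.9, 2.3 and 10.8 CPM, with mutant 2 the lowest of the mutant lines and 8.67 and 20.2 CPM in the null lines. Sall2 rose from 10.7 and 10.2 to 28.3, 40.3 and 39.2 CPM (log2 fold change 1.78). These 5 genes were higher in every mutant line than in either WT line, which the naming rule required of all but Zeb2. Libraries of the groups lay apart for 52.6% of all genes tested. Of those that fell, Snai3, the least studied Snail-family repressor, went from 6.36 and 8.36 to 0.163, 0.617 and 0.252 CPM (log2 fold change -4.41). The family's better known members did not pass: Snai2 had 121 and 155 CPM in WT and 183, 82 and 126 CPM in mutant lines, and Snai1 0 and 0.0812 CPM (WT) and 10.4, 0.0475 and 2.78 CPM (mutant) (edgeR adjusted p = 0.881 and 0.177). Prdm1, the repressor BLIMP1, fell from 20.5 and 28.8 to 5.53, 1.71 and 2.59 CPM (log2 fold change -2.91). Sp6, a factor of epithelial appendages and teeth, fell from 39.4 and 34.9 to 10.03, 8.57 and 5.85 CPM (log2 fold change -2.19 ± 0.32 SE, edgeR adjusted p = 0.0231).

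Developmental factors of other families were called by edgeR in the higher direction only: 4 of 93 homeobox (4.3%, beside 3.3% of all genes), 4 of 30 forkhead, 1 of 19 SOX, TCF/LEF and HMG factors, and 7 of 69 in the list of GATA, T-box, RUNX, ETS, NFI and related factors. Lower calls did occur with DESeq2, which called 18 of 21 homeobox, 6 of 8 forkhead, 3 of 6 SOX, TCF/LEF and HMG and 22 of 24 GATA-list factors higher, and with limma-voom, which called 2 of 3 in the last list higher. Foxf2, a forkhead factor of gut mesenchyme, had 3 counts in the WT lines together and 18.1, 32.1 and 45.8 CPM in the mutant lines, a ratio of 437 (exact 95% counting interval 149 to 2119). Foxd1 rose from 0.748 and 0.244 to 7.16, 28.3 and 17.5 CPM, least in mutant 1. Foxn2 rose from 45 and 41.9 to 97.2, 123 and 99.2 CPM and Foxj3, chosen after its values were seen, from 57.3 and 68.9 to 109, 124 and 111 CPM. Irx1 and its neighbour Irx2, Iroquois patterning genes of 1 cluster, both rose. Irx1 went from 8.78 and 15.3 to 98.3, 316 and 191 CPM (log2 fold change 4.08 ± 0.57 SE, edgeR adjusted p = 0.0227) and Irx2 from 18.7 and 18.7 to 43, 115 and 85.6 CPM (log2 fold change 2.12). Both were highest in mutant 2, and both null lines lay above WT for Irx1, at 45.6 and 51.3 CPM. The other 2 homeobox calls, Hhex and Hlx, were chosen after their values were seen and stayed low, Hhex at 1.69, 3.77 and 5.07 CPM and Hlx at 2.87, 1.52 and 2.96 CPM in the mutant lines. Runx3, a partner of TGF-beta signalling, rose from 0.238 and 0.568 to 14, 10.6 and 15.4 CPM, and Tbx15, a T-box factor of limb and skin, from 3.27 and 2.68 to 19.3, 11.9 and 21.5 CPM (log2 fold changes 5.10 and 2.56). Nfic rose from 73.1 and 83.1 to 204, 255 and 265 CPM (log2 fold change 1.63 ± 0.22 SE, edgeR adjusted p = 0.0212). Tcf7, a nuclear partner of beta-catenin, rose from 3.27 and 4.06 to 11, 12.4 and 20.1 CPM.

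Basic helix-loop-helix factors had 6 members higher and 3 lower of 53 (17% called, beside 7.42% of all genes), and 17 of 21 DESeq2 calls were higher. Id1, which blocks other members of the family and answers to BMP, rose from 0.612 and 1.14 to 30.7, 32.3 and 37.1 CPM (log2 fold change 5.30). Null 1 had 4.17 CPM of Id1 and null 3 had 48.3 CPM. Scx, a tendon factor, rose from 1.73 and 0.731 to 17.2, 15.4 and 7.11 CPM. Arnt, the common partner of hypoxia and dioxin receptors, rose from 95.5 and 82.7 to 146, 179.7 and 194 CPM (log2 fold change 0.96). Hes1, a Notch effector, fell from 245 and 348 to 56.6, 109 and 116 CPM (log2 fold change -1.66), and the null lines were lower still, at 52.2 and 41.5 CPM. Mycl, a MYC family member, fell from 29.7 and 30.8 to 5.47, 6.74 and 10.3 CPM (log2 fold change -2.01). Arntl2, a partner of the clock protein CLOCK, fell from 69.4 and 129 to 17.3, 22 and 37.6 CPM.

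Among bZIP factors and nuclear receptors, Nfe2l3, a relative of the oxidant sensor NRF2, fell from 29.6 and 26.6 to 3.34, 1.33 and 1.15 CPM (log2 fold change -3.86 ± 0.52 SE, edgeR adjusted p = 0.0218). The null lines kept 24.5 and 15.5 CPM of Nfe2l3. Nfil3, a clock output repressor, rose from 30.9 and 19.5 to 74.1, 75 and 64.2 CPM, and Tef, a clock output activator, from 49.1 and 60.2 to 87.8, 103 and 119 CPM. Nr1d1, the clock repressor REV-ERB alpha, rose from 56.6 and 49.9 to 157, 126 and 145 CPM (log2 fold change 1.42 ± 0.18 SE, edgeR adjusted p = 0.0212). Ppard, a lipid-sensing receptor, fell from 302 and 300.3 to 148, 143 and 134 CPM, and Esrra, a regulator of mitochondrial genes, from 79 and 62.9 to 24.2, 30.3 and 20.7 CPM. For these 3 nuclear receptors no mutant line overlapped a WT line, which was a condition for naming them. None of 37 STAT, IRF, NF-kB, SMAD and NFAT factors was called by edgeR (8 at an unadjusted p under 0.05), and DESeq2 called 7 and limma-voom 0. The one with the smallest p, the inhibitory SMAD gene Smad6, had 0.17 and 0.244 CPM in WT and 4.27, 2.71 and 1.67 CPM in mutant lines (edgeR adjusted p = 0.0506). Across the 455 transcription factors, 0 calls were left without WT 1, without WT 2 and without mutant 3, and 1 without mutant 2. DESeq2 called 130.

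**Figure D4:**
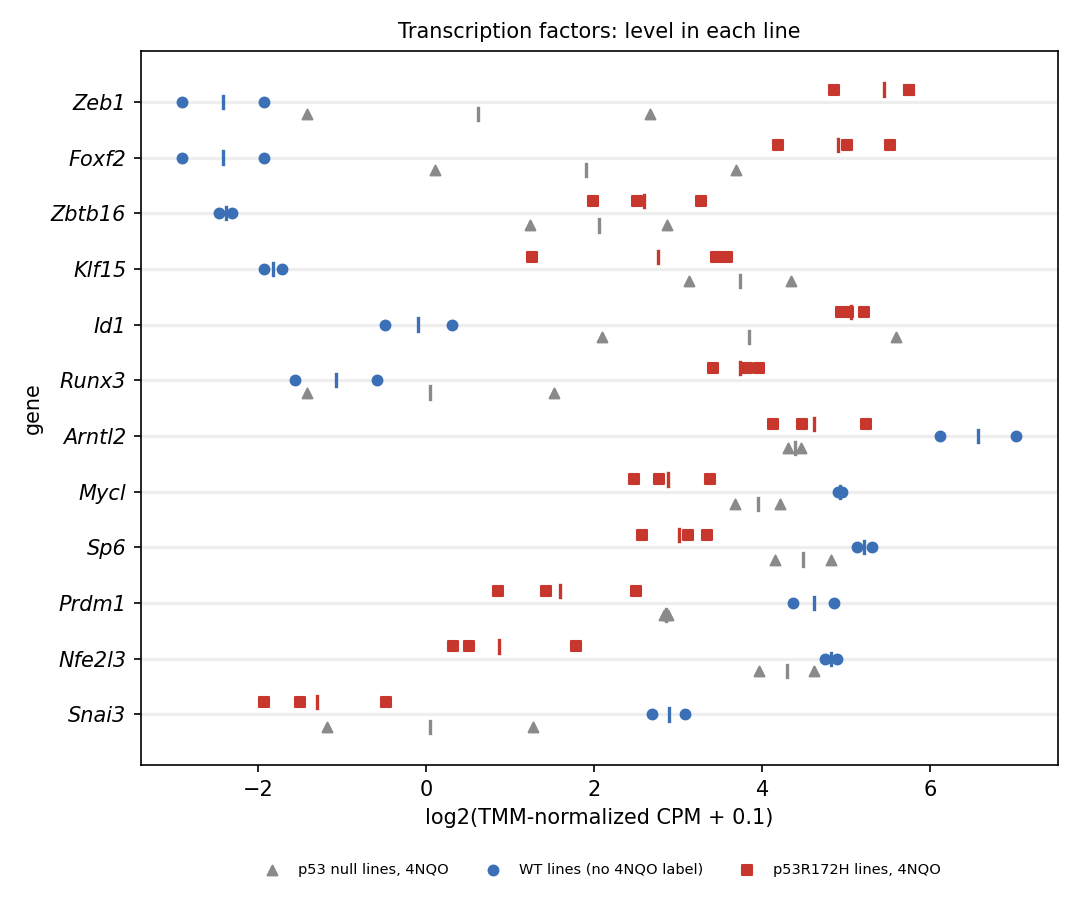
Levels of the 6 transcription factors with the largest and the 6 with the smallest log2 fold change under the naming rule, as log2 of TMM-normalized CPM plus 0.1, with 1 symbol per cell line and short bars at the group means. Zeb1 and Foxf2 are near 0 in both WT lines and at 18.1 CPM or more in each mutant line, and the null lines are spread from the WT level to the mutant level.

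Metabolic genes were called lower more often than higher, as were all genes tested, and their median log2 fold change was -0.02. Single genes that fell included the transporters Slc1a1 and Slc2a5, G6pdx of the pentose phosphate pathway, Nsdhl of sterol synthesis and Adss of purine synthesis. The list of glycan, hyaluronan and sulfation enzymes held 10 of the 26 metabolic genes called higher and 107 of the 750 tested. Named metabolic genes had adjusted p-values between 0.00788 and 0.0465.

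The list of glycan, hyaluronan and sulfation enzymes had 10 members higher and 5 lower of 107 (14% called, beside 7.42% of all genes). Its median log2 fold change was 0.14, and 19 of 32 DESeq2 calls were higher. St6galnac4, which adds sialic acid to O-glycans, had 0 counts in both WT lines and 13.8, 8.71 and 19.5 CPM in the mutant lines, at least 196-fold higher with a floor of 3 counts over the group. Both null lines also transcribed it, at 7.39 and 12.6 CPM. B4galt6, a lactosylceramide synthase, rose from 0.0680 and 0.162 to 20.7, 38.9 and 40.9 CPM (log2 fold change 8.33 ± 0.75 SE, edgeR adjusted p = 0.0113), with 14.1 and 31.4 CPM in the null lines. Its relatives B4galt2, B4galt4 and B4galt5, chosen after their values were seen, rose too. B4galt2 went from 6.7 and 8.44 to 29.4, 24.8 and 30.2 CPM, B4galt4 from 0.748 and 0.325 to 9.25, 7.93 and 12.5 CPM and B4galt5 from 9.08 and 6.17 to 23.8, 30.5 and 25.2 CPM. Chst3, a chondroitin sulfotransferase, rose from 0.204 and 0 to 4.43, 15.5 and 12.2 CPM (log2 fold change 6.41). Of the enzymes that fell, Hs3st1, a heparan sulfotransferase, went from 9.32 and 7.31 to 0.183, 0.546 and 0.229 CPM, and Mgat5b, an N-acetylglucosaminyltransferase, from 3.13 and 7.71 to 0.346, 0.237 and 0.206 CPM (log2 fold changes -4.69 and -4.34). B4galnt1, which makes the gangliosides GM2 and GD2, fell from 140.1 and 165 to 75.2, 77.7 and 78.5 CPM with little spread in either group.

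Of 61 amino acid enzymes and transporters edgeR called 2 higher and 6 lower (13.1% called, beside 7.42% of all genes). The list's median log2 fold change was -0.04, and 8 of 18 DESeq2 calls were higher. Slc1a1, a glutamate and cysteine transporter, fell from 87 and 100.4 to 2.26, 0.736 and 0.229 CPM (log2 fold change -6.43 ± 1.26 SE, edgeR adjusted p = 0.0376). The null lines split, at 65.8 and 5.35 CPM. Slc6a14, a carrier of neutral and basic amino acids, fell from 21.2 and 11.3 to 0.793, 0.237 and 0.0229 CPM. Arg1, which splits arginine, fell from 8.2 and 16.3 to 0.834, 0.0949 and 0.0459 CPM (log2 fold change -5.20), and the null lines, at 40.1 and 14.8 CPM, did not share the fall. Asl, which makes arginine, fell from 36.4 and 36 to 16.7, 12.7 and 15.3 CPM. The taurine transporter Slc6a6 rose from 118 and 124 to 267, 340.3 and 359 CPM (log2 fold change 1.41). In polyamine metabolism, Srm, which makes spermidine, rose from 61.5 and 64.4 to 129, 137 and 144 CPM, and Smox, which oxidises spermine, fell from 98.8 and 53.5 to 21.1, 13 and 15.5 CPM (log2 fold changes 1.12 and -2.20).

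In sugar and redox metabolism the largest abundance was that of Gsto1, a glutathione transferase, which fell from 5794 and 4158 to 609, 569 and 560.1 CPM (log2 fold change -3.10 ± 0.52 SE, edgeR adjusted p = 0.0286), with 2323 and 614 CPM in the null lines. Of 73 pentose phosphate, glutathione and redox enzymes edgeR called 3 higher and 5 lower (11% called, beside 7.42% of all genes). The list's median log2 fold change was -0.07, and 7 of 18 DESeq2 calls were higher. G6pdx, the entry enzyme of the pentose phosphate pathway, fell from 226 and 246 to 77.5, 78.7 and 73.4 CPM (log2 fold change -1.63 ± 0.28 SE, edgeR adjusted p = 0.0297). Tkt, transketolase of the same pathway, outside the rule and chosen after its values were seen, fell from 804 and 804 to 290.3, 315 and 324 CPM. G6pdx, Gpc3, Slc6a14, Nsdhl, Prps2 and Grpr are X-linked, and the part of the Xist difference in them was not tested. Gstm1, another glutathione transferase, rose from 3.57 and 5.36 to 52.4, 55.7 and 38.2 CPM (log2 fold change 3.46 ± 0.34 SE, edgeR adjusted p = 0.0139). It has close paralogs whose reads could have been split in counting. Nnt, the mitochondrial proton-pumping transhydrogenase that makes NADPH, rose from 16.2 and 15.7 to 53.1, 65.1 and 63 CPM (log2 fold change 1.92 ± 0.17 SE, edgeR adjusted p = 0.0113). The null lines had 56.7 and 61.7 CPM of Nnt, inside the mutant range. Eno2, the neuronal enolase, had 1 count in the WT lines and 6.28, 5.22 and 13 CPM in the mutant lines, a ratio of 339 (exact 95% counting interval 60.7 to 13398). Of 67 genes of glucose and monocarboxylate metabolism edgeR called 1 higher and 4 lower. That list's median log2 fold change was 0.03, and 12 of 18 DESeq2 calls were higher. The fructose transporter Slc2a5 fell from 30.7 and 37.4 to 6.94, 7.24 and 7.53 CPM, and the urate transporter Slc2a9 from 5.99 and 7.14 to 0.468, 0.356 and 0.344 CPM (log2 fold changes -2.24 and -4.06). Gys1, glycogen synthase, fell from 141 and 122 to 71.1, 76.9 and 80.1 CPM, and Pfkp, a phosphofructokinase chosen after its values were seen, from 89.5 and 119.7 to 66.7, 52 and 56.7 CPM.

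In the citrate cycle and one-carbon list all 3 edgeR calls of 52 were lower and small, with a median log2 fold change of 0.04 and 5 of 12 DESeq2 calls higher. Fh1, fumarase, fell from 69.1 and 77.5 to 42.4, 46.4 and 38 CPM, and Mthfd1, a folate enzyme, from 118 and 198 to 65.6, 69.6 and 83.4 CPM. The other was Ahcyl2, a relative of adenosylhomocysteinase chosen after its values were seen, at 54 and 73.2 CPM in WT and 35.8, 38.1 and 34.3 CPM in mutant lines. Nucleotide enzymes had 3 higher and 7 lower of 78 (12.8% called, beside 7.42% of all genes). The median log2 fold change of that list was 0.16, and 9 of 20 DESeq2 calls were higher. Adss and Prps2, of purine and phosphoribosyl pyrophosphate synthesis, fell from 234 and 289 to 100.3, 115 and 91.4 CPM and from 83.2 and 92.6 to 33.1, 35.6 and 31.6 CPM (log2 fold changes -1.36 and -1.39). Dck, which salvages deoxynucleosides, rose from 28.4 and 27.2 to 64.9, 55.9 and 62.1 CPM. Enpp4, a hydrolase of dinucleotides on the cell surface, had one of the smallest adjusted p-values of the comparison, rising from 0.204 and 0.244 to 15.5, 18.1 and 22.8 CPM (log2 fold change 6.40 ± 0.39 SE, edgeR adjusted p = 0.00788). The null lines, at 17.5 and 15.3 CPM, were on the mutant level.

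Lipid enzymes went in both directions. Of the ceramide synthases, Cers3, which makes the ultra-long ceramides of barrier epithelia, fell from 168 and 162 to 49.4, 32.1 and 23 CPM (log2 fold change -2.24), while Cers2, which makes very-long-chain ceramides, rose from 123 and 103 to 200.1, 184 and 177 CPM (log2 fold change 0.73). Mgll, which releases fatty acids from monoglycerides, rose from 0.0680 and 0.244 to 11.9, 51.4 and 9.13 CPM (log2 fold change 7.45 ± 1.22 SE, edgeR adjusted p = 0.0274), and the null lines stayed near WT, at 0.304 and 0.266 CPM. Lpin3, a phosphatidate phosphatase, fell from 37.4 and 35.8 to 10.3, 6.62 and 7.16 CPM and Acsl5, which activates fatty acids, from 184 and 197 to 65.8, 74.6 and 57.5 CPM. Chpt1, the last enzyme of phosphatidylcholine synthesis, rose from 4.97 and 5.12 to 16.3, 18.4 and 21 CPM. In sterol metabolism all 3 edgeR calls of 54 were lower, the list's median log2 fold change was -0.48, and 3 of 11 DESeq2 calls were higher. Nsdhl, an enzyme of cholesterol synthesis, fell from 96.9 and 115 to 31.4, 25 and 46.3 CPM. Srd5a1, a steroid 5-alpha reductase, fell from 24.6 and 34.4 to 9.32, 8.69 and 9.22 CPM, and Scap, the escort of sterol-sensing SREBP factors, chosen after its values were seen, from 187 and 175 to 104, 95.9 and 68.1 CPM. Crabp2, which carries retinoic acid to the nucleus, rose from 2.96 and 6.82 to 52.3, 38.6 and 32.5 CPM, and Adh7, a retinol and alcohol dehydrogenase, from 2.72 and 5.36 to 26.7, 82.7 and 85 CPM (log2 fold changes 3.09 and 4.03). Ces2g, a carboxylesterase with close paralogs, fell from 209.8 and 351 to 18.8, 38.5 and 20.3 CPM. Across the 750 metabolic genes, 0 calls were left without WT 1 and without WT 2, 5 without mutant 2 and 1 without mutant 3, and DESeq2 called 210.

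**Figure D5:**
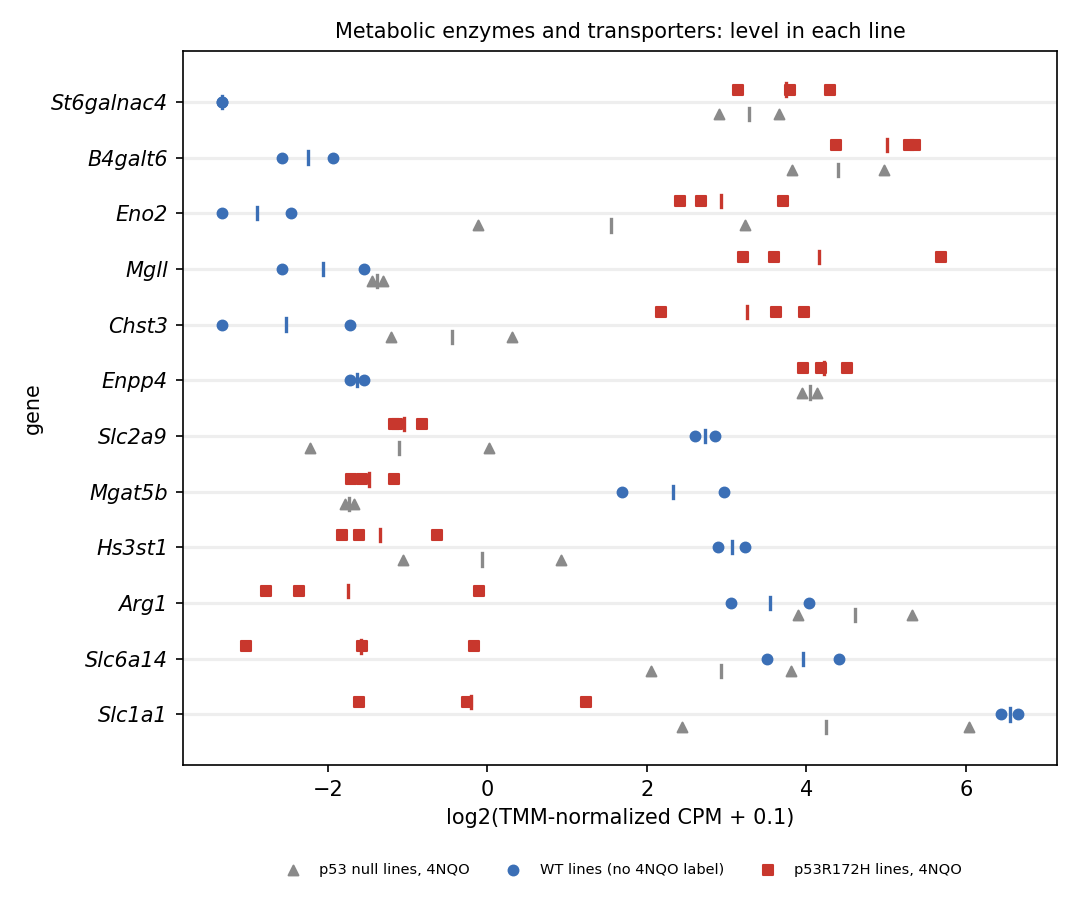
Levels of the 6 metabolic genes with the largest and the 6 with the smallest log2 fold change under the naming rule, as log2 of TMM-normalized CPM plus 0.1, with 1 symbol per cell line and short bars at the group means. The null lines sit with the mutant lines for St6galnac4, B4galt6, Enpp4 and Mgat5b and with the WT lines for Mgll and Arg1.

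Outside the 4 classes, the largest changes under the naming rule included genes of membranes and nerve. Pmp22, a myelin protein, had 1 count in the WT lines together and 12.1, 22.7 and 19.1 CPM in the mutant lines, a ratio of 738 (exact 95% counting interval 132 to 29153). Lgi2, a secreted leucine-rich protein of the nervous system, rose from 0.136 and 0 to 97.4, 5.6 and 32.6 CPM. Tenm2, a teneurin, had 2 counts in WT and 2.09, 14.1 and 32.8 CPM in the mutant lines, and the null lines were near WT at 0.213 and 0.152 CPM. Asic1, a proton-gated sodium channel, also had 2 counts in WT and 9.56, 9.59 and 13.9 CPM in the mutant lines. Among the genes lost, Grpr, the receptor of gastrin-releasing peptide, had 4.8 and 11 CPM in WT and 0.0610, 0 and 0 CPM in mutant lines. Prokr2, a prokineticin receptor, went from 4.35 and 9.09 to 0.0610, 0.0237 and 0 CPM, and Ano3, an anoctamin, from 3.23 and 6.98 to 0.0407, 0 and 0 CPM. All 3 were as low in the null lines, none of which exceeded 0.190 CPM for any of them. Calm4, a calmodulin-like protein of epithelia, fell from 3.57 and 8.85 to 0.142, 0 and 0.0459 CPM, and Celf5, an RNA-binding protein, from 3.91 and 7.06 to 0.102, 0.119 and 0.0229 CPM. Pbp2, a close copy of Pebp1 whose reads could have been split in counting, had 11.5 and 16.9 CPM in WT and 0 counts in the mutant lines, at least 589.7-fold lower with a floor of 3 counts over the group.

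The null lines share the 4NQO label with the mutant lines, so the direct comparison of these groups holds that label constant. The null lines differed from each other in Ddx3y, at 0.0304 and 96.4 CPM. Their log2 CPM correlated at 0.895 with each other, against 0.940 for null 1 with WT 1 and 0.958 for null 3 with mutant 1. The part of these differences in the comparison was not tested. In it edgeR called 0 of 13768 genes (0%), with 1924 (14%) at an unadjusted p under 0.05. DESeq2 called 604, and edgeR without null 3 called 22. None of the 121 genes named above as called passed, and their smallest adjusted p was 0.258 by edgeR. A missed threshold does not show that the groups were alike, and both comparisons share the mutant libraries. Side by side, the mutant minus null log2 differences were large for Mgll (6.38), Gpc3 (7.13), C1qtnf3 (9.49) and Nrg2 (4.46), where the null lines stood near WT. They were also large for Arg1 (-6.36), Tnf (-5.50), Slc1a1 (-5.04) and Nfe2l3 (-3.36), which null lines transcribed more than mutant lines. They were near 0 for Nnt (0.03), Ephb4 (0.08), Slc2a5 (-0.03), Inhbb (0.07) and Enpp4 (0.20), where mutant and null lines both stood apart from WT.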

How the data were processed

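Stranded mRNA libraries were sequenced, per the labels' protocols. What the authors deposited is one table of raw counts for 24047 gene names, made with STAR 2.5.1b and build mm9, per the submitters' processing notes. How reads were counted, with which strand setting and annotation, is not given in the sources used here. Overlapping genes and close paralogs are therefore uncertain. The 92 spike-in names held 0 counts and were dropped. Another 27 names look like dates and are not named.

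All 7 libraries entered one edgeR 4.0.16 quasi-likelihood fit (R 4.3.3) with TMM factors. The package's group-wise filter kept 13768 genes, over which p-values were adjusted by Benjamini-Hochberg, with a threshold of 0.05. A gene is called higher or lower, or said to have risen or fallen, when it passed. Each standard error is the absolute log2 fold change over the root of F. Floors of 3 counts and exact 95% intervals cover counting error only. Genes tested took up 99.95% or more of every library, and the common biological coefficient of variation was 0.485. Members and lists were chosen with earlier results of these data known. Lists were described by counts and medians, without a test. Genes were named when called, outside the set-aside lists, with mutant and WT libraries apart and a mean of 5 CPM or more in the higher group: the 6 largest and 6 smallest changes per class, 2 per list and direction by p, and the 10 largest and 10 smallest overall without predicted models. A list with no call gives its gene with the smallest p, and partner genes are given as values. Smooth muscle, endothelial and neural markers, checked as well, had no gene called by edgeR, while DESeq2 called 3 muscle and 1 endothelial marker. On simulated counts for 13512 genes in mutant against WT, 50 genes were changed at each fold, all with a mean above 5 CPM. The fit called 2% of genes changed 2-fold, 70% at 4-fold, 84% at 8-fold and 86% at 16-fold, with 4 false calls. Far more genes were called in the data, and changes at lower levels were not simulated. These shares are therefore not the sensitivity of the comparison itself. Alternatives were other scaling factors, DESeq2 1.42.0, limma-voom (limma 3.58.1), other forms of the fit, other filters, thinning, the omission of each library in turn and a replicate block.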

Additional observations from a re-analysis of the deposited data

How the results depend on the processing

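With 2 WT lines, the calls rested on each of them, and leaving one out ended all of them. The 123 genes named by rule kept their direction under every alternative that tested them, the filter of 5 CPM in 2 libraries testing 114. This was largely fixed by the choice of genes, since the 121 called ones were named only with mutant and WT libraries apart. It is therefore no measure of how robust they are. Counts of calls in mutant against WT ranged from 0 to 1420 when 1 library was left out, and from 0 to 22 in mutant against null. The same ranges were 0 to 55 for surface receptors, 0 to 55 for secreted factors, 0 to 66 for transcription factors and 0 to 99 for metabolism. DESeq2 called 3187 genes (1710 higher) in mutant against WT and 604 in mutant against null, and 103, 119, 130 and 210 in the 4 classes in the order above. Limma-voom called 743 genes, of which 26.9% were higher against 44.4% with edgeR, with 24 transcription factors, and it called 83 of the 121 named genes. The newer quasi-likelihood form called 41 secreted factors and no filter 43. Fits of only the groups compared called 58 surface receptors, 60 secreted factors and 113 metabolic genes. In mutant against null, RLE factors, upper-quartile factors, the newer form and the stricter filter called 1 gene each and no filter 2. Whether equal replicate numbers mark paired samples could not be told, since the deviations of 2 WT lines are exact mirrors of each other. The correlation of deviations was -0.02 for WT 1 with mutant 1 and for WT 2 with mutant 2. It was 0.14 for WT 1 with null 1, -0.41 for mutant 1 with null 1 and -0.02 for mutant 3 with null 3. A replicate block in edgeR left 0 calls overall and 0 in each class, with 2887 genes at an unadjusted p under 0.05 and a smallest adjusted p of 0.0605. The cause of these changes was not tested. The shallowest library had 12751118 counts, and thinning all libraries to that total gave 1105 calls.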

Other observations

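Cytosolic ribosomal protein genes, a group chosen after its values were seen, had 0 members higher and 14 lower of 80 tested in mutant against WT (17.5%, beside 7.42% over all genes). Their median log2 fold change was -0.28, with 66 of 80 below 0. It was -0.30 with RLE factors and -0.32 with upper-quartile factors, and 17 were lower under each. Line by line, the mutants had median log2 ratios to the WT mean of -0.46, -0.16 and -0.30, whereas null 1 had 0.06 and null 3 had -0.27. Rpl3, a core protein of the large subunit, had 1022 and 1048 CPM in the WT lines and 527, 524 and 487 CPM in the mutant lines. Rps20, of the small subunit, had 959 and 976 CPM (WT) and 432, 472 and 369 CPM (mutant). Rpl22l1, a paralog of Rpl22, changed more, from 163 and 171 to 52.6, 31.2 and 39.3 CPM, and the null lines shared the low level at 35.1 and 45.3 CPM. Ribosomal protein genes have many processed copies in the genome, which could split their reads. Mitochondrial ribosomal proteins, also chosen after their values were seen, had 2 higher and 0 lower of 77, with a median of 0.24.

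Of the clock factors named above, Nfil3, Tef and Nr1d1 rose and Arntl2 fell (log2 fold change -1.95). Of 7 further genes of the daily clock, chosen after their values were seen, 3 passed edgeR's test. These 3 were higher in the mutant lines, beside 3.3% of all genes tested called higher. The 7 are not a full set of clock genes. Dbp, a clock output activator, rose from 13.4 and 15.4 to 24.6, 37.2 and 37.9 CPM (edgeR adjusted p = 0.0429). Clock itself rose from 114 and 135 to 188, 232 and 260.1 CPM and the repressor Cry1 from 29.8 and 21.6 to 44.4, 70.7 and 74.5 CPM (edgeR adjusted p = 0.0450 and 0.0464). The other 4 did not pass. Cry2 had 20.4 and 22.7 CPM in WT and 33.2, 42.3 and 47.1 CPM in mutant lines (edgeR adjusted p = 0.0562). Nr1d2 had 53.4 and 65.9 CPM (WT) and 98.8, 99.4 and 107 CPM (mutant), and Per1 had 93.1 and 95.6 CPM (WT) and 114, 154 and 155 CPM (mutant), with edgeR adjusted p = 0.0594 and 0.0961. Arntl, the partner of CLOCK, had 70.9 and 70.2 CPM in WT and 56.6, 46.1 and 72.2 CPM in mutant lines. The labels give no time of harvest. Without WT 1, and likewise without WT 2, no gene was called by edgeR, these included.

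Lpl, lipoprotein lipase, chosen after its values were seen, stood at 1.12 and 2.6 CPM in WT and 89.7, 14.5 and 23.7 CPM in mutant lines (edgeR adjusted p = 0.0434), and was higher still in the null lines, at 188 and 132 CPM. Sall1, a developmental zinc finger gene also chosen this way, had 0.0340 and 0 CPM in WT, 8.5, 1.76 and 1.74 CPM in mutant and 30.1 and 5.43 CPM in null lines.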
